A study of Mus musculus with 6 samples.

Results

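The 38 genes described here are autism or neurodevelopmental disorder genes that encode chromatin proteins, transcriptional regulators, ubiquitin ligases, growth signalling proteins and regulators of RNA or protein. They were taken as a list of symbols, and all 38 were among the 11881 genes of the deposited count table. All 38 also passed the low-count filter, as did 10832 genes in all. The RNA came from microglia, the resident macrophages of the brain, sorted from hippocampi of male mice aged 17 to 21 postnatal days by a gate for CD11b and low CD45. Of the 6 libraries, 3 were labelled WT and 3 were labelled Mll5+/-, that is, with 1 disrupted copy of the gene Mll5, now named Kmt2e. Since every animal has a number of its own in the labels, a library is treated as 1 mouse, and replicate numbers here only name libraries. Below, heterozygote-labelled libraries are those labelled Mll5+/-. The sources used here give neither the strain, nor further alleles, nor which part of Mll5 was disrupted. The gate can also admit other macrophages of the brain.

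Rare variants in these genes, in many of them loss-of-function variants, are a recurrent cause of autism and intellectual disability in people. Many of the proteins act on the packing of DNA: remodelling ATPases slide nucleosomes, histone methyltransferases and demethylases write and erase marks, and corepressors recruit enzymes that silence genes. They are present in most cell types, microglia included, although they are usually studied in neurons. MLL5 belongs to the same class, as its PHD finger binds histone H3 trimethylated at the lysine found at active promoters, most of which are rich in CG dinucleotides. MLL5 itself, also known as KMT2E, is an autism-associated gene in people.

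Promoter windows are shown for members whose levels did not overlap between the genotypes, since base composition is a feature that the choice of members did not use. The windows are the 250 bases before each start in RefSeq (GRCm38.p6), and where a gene had several starts the window with the most CG dinucleotides was taken, for members and for all other genes alike. An entry existed for 30 of the 38 members and for 8670 of the 10832 tested genes. The median number of CG dinucleotides was 24 in the members and 17 in all tested genes with an entry. At least 15 CG dinucleotides were present in 25 of the 30 members (83.3%) and in 60.9% of the tested genes. Between the members, the number ran from 6 in Tcf20 to 51 in Med13l. The windows of Rere and Naa15 begin in annotated exons of these genes and are not shown. The stretches below are the part of each window before its first base in an exon of the same gene. They run 5′ to 3′ on the strand of the gene, with each CG dinucleotide in capitals. Chd8 is at chr14:52257781-52258010 (minus strand, 230 bases) and Ppp2r5d at chr17:46705112-46705252 (minus strand, 141 bases), both in GRCm38.p6.
Chd8: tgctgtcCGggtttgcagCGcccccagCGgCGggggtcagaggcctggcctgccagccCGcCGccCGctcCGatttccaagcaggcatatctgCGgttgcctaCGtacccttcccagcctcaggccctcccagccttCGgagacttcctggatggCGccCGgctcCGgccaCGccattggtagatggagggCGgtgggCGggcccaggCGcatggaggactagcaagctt
Ppp2r5d: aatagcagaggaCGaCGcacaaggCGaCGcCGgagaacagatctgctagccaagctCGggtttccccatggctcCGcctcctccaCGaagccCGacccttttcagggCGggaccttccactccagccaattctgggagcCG

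The Chd8 stretch holds 18 CG dinucleotides and the Ppp2r5d stretch 11. Of short motifs searched on both strands of the 250-base windows, the CCAAT box (CCAAT) was in 11 of 30 members (36.7%) and in 36% of tested genes, and it was in both stretches shown. The ETS-type motif CCGGAAG was in 2 members (6.67%, against 16% of tested genes), those of Nf1 and Tsc2, and the NRF1-type motif was in 2 (6.67%, against 9.46%), those of Naa15 and Phf12. The E-box CACGTG and the cAMP response element TGACGTCA were in 0 member windows, against 8.85% and 2.83% of tested genes, and the TATA-type motif TATAAA was in 1, that of Hectd4 (3.33%, against 5.67%). All of these motifs other than the CCAAT box and the TATA-type motif hold CG dinucleotides themselves, so their matches are not independent of the CG count. These matches describe letters in the windows and say nothing of binding.

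The libraries held between 21075570 and 29730400 counts, so that 3 counts stood for 0.104 to 0.142 CPM (counts scaled to a common library size). Kmt2e, on chromosome 5 from 23639439 to 23709233 (mm39), had 479.5, 378 and 688 CPM in WT-labelled libraries and 648, 298 and 513 CPM in heterozygote-labelled libraries. The groups overlapped, with a log2 fold change of -0.08 (labelled Mll5+/- minus labelled WT, 95% interval -0.79 to 0.63, edgeR unadjusted p = 0.799). Counts over the whole gene gave no sign of a lost copy, so genotypes are named as the labels give them, and every direction below rests on those labels. All 10 microglia markers were in the table, and their summed level was 9012 to 13238 CPM in WT-labelled libraries and 7328 to 8377 CPM in heterozygote-labelled libraries, without overlap. The median log2 fold change of these markers was -0.04, so the difference in the sum was not one of the typical marker. Of markers of other cells, 6 of 10 neuronal genes, among them Rbfox3, Tubb3 and Slc17a7, and 3 of 10 astrocyte genes, among them Gfap, were not in the table. The summed level of border-associated macrophage markers was 265 to 328 CPM in WT-labelled libraries and 368 to 692 CPM in heterozygote-labelled libraries, and that of oligodendrocyte lineage markers was 140.3 to 185 and 98.2 to 135 CPM. Both lists, of which 5 of 7 and 6 of 10 genes were in the table, were without overlap between the genotypes. Their median log2 fold changes were 0.68 and -0.64. The genotypes overlapped for astrocyte markers (388 to 552 and 265 to 555 CPM), neuronal markers (16.3 to 29.3 and 10.8 to 41.2 CPM), endothelial and mural markers (10.3 to 22.0 and 9.55 to 19.4 CPM) and monocyte, neutrophil and lymphocyte markers (9.54 to 44.6 and 10.1 to 43.4 CPM). They also overlapped for mitochondrial transcripts (25519 to 29787 and 18501 to 35405 CPM) and for immediate early genes (71.6 to 132 and 102 to 131 CPM). The part of these differences in the results below was not tested. In such bulk libraries, fewer cells of a type and less RNA per cell cannot be told apart.

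The members were well expressed in these cells. With well expressed set at a mean of at least 10 CPM and a count in all 6 libraries, 34 of the 38 members met it. Pogz, at 14.8 CPM, was the lowest of them, and Dyrk1a (8.43), Bcl11a (8.31), Ppp2r5d (6.34) and Tsc2 (2.87 CPM) lay under it. A mean of at least 10 CPM was reached by 6835 of the 10832 tested genes, whether or not every library had a count. The median member had 131 CPM and the median tested gene 17.8 CPM. Divided by the length of the merged exons (GENCODE M21), the median was 12.1 CPM per kb for the members and 4.17 CPM per kb for the 10596 tested genes with a length. On that scale Nipbl, the loader of cohesin onto DNA, stood highest with 96.4 CPM per kb. Adnp, a zinc finger protein that binds heterochromatin protein HP1, followed with 67.3 and Wac, an adaptor for histone H2B ubiquitination, with 57.4 CPM per kb. Tsc2 (0.298) and Bcl11a (0.631 CPM per kb) stood lowest. The members were also long genes, with a median deposited span of 101 kb against 23.9 kb for all tested genes.

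**Figure D1:**
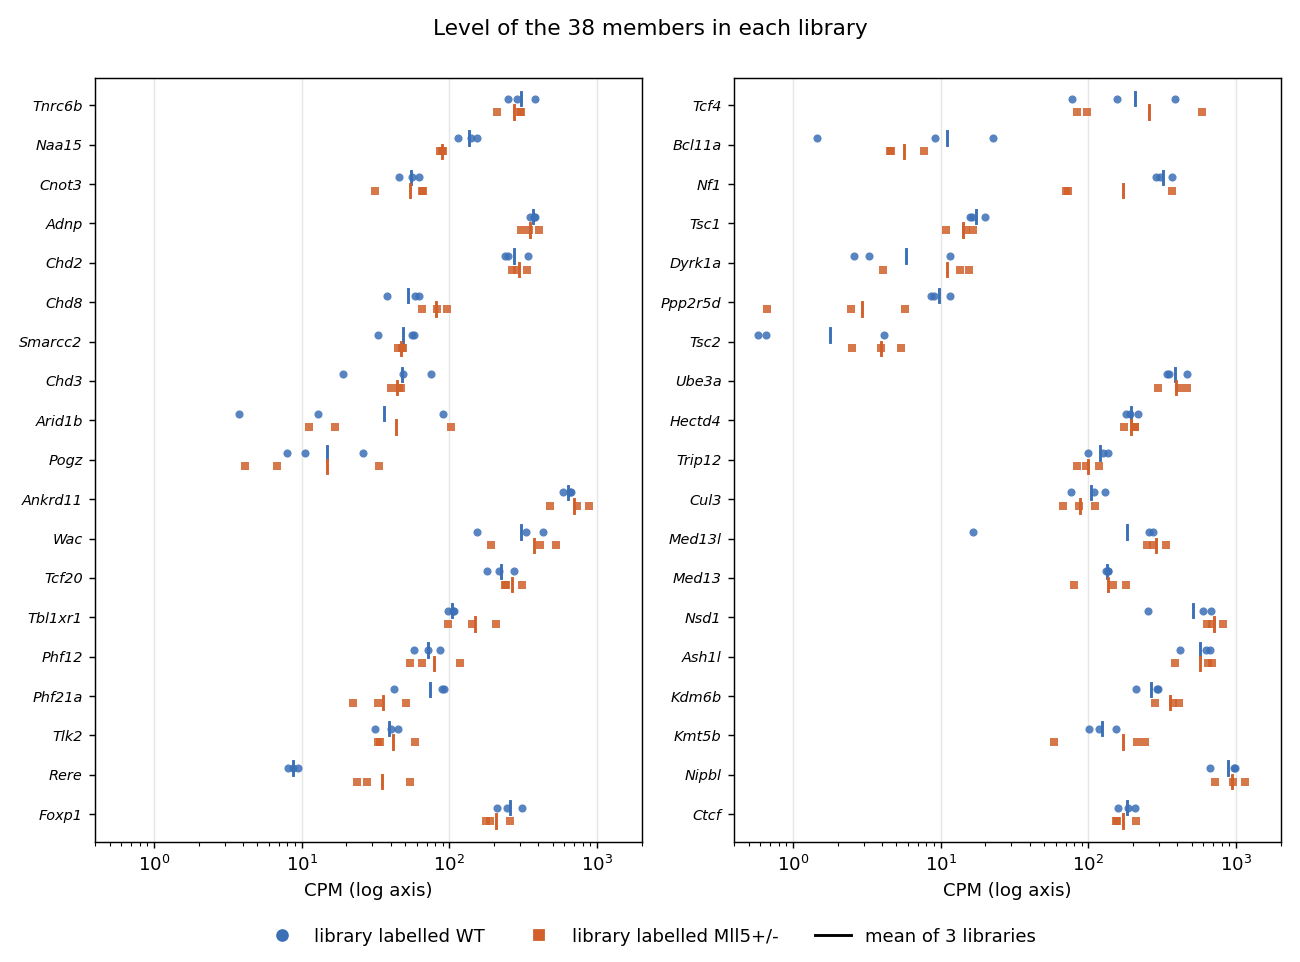
Level of each of the 38 members in each library, in CPM on a log axis, ordered by role group. Circles are libraries labelled WT, squares are libraries labelled Mll5+/-, and vertical bars are means of 3. Most rows show mixed circles and squares, while Rere, Chd8, Naa15 and Ppp2r5d show them apart.

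The comparison of the design asks whether the loss of a copy of Mll5 goes with other levels of these genes in microglia. No member passed the threshold, an adjusted p under 0.05 over all tested genes (edgeR, 0 of 38 members, with 0% of all tested genes called). The corepressor gene Rere was at a higher level in every library labelled Mll5+/-, and so was the remodeller gene Chd8. Naa15, which encodes a subunit of an N-terminal acetyltransferase, and Ppp2r5d, which encodes a regulatory subunit of a phosphatase, were at lower levels in every library labelled Mll5+/-. These 4 members without overlap are 10.5% of the list, and 9.32% of all tested genes did not overlap, so the share was near the background. Among genes of at least 10 CPM, 9.29% did not overlap. By direction, 2 members were higher, where 4.68% of all tested genes were, and 2 were lower, where 4.64% were.

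An unadjusted p under 0.05 was found for 3 members, Rere, Naa15 and Phf21a (7.89%), and for 2.88% of all tested genes. Of these, 1 was higher (1.36% of all tested genes) and 2 were lower (1.52%). The background for unadjusted p, here and below, is not matched for level. The median member had 131 CPM and the median tested gene 17.8 CPM. DESeq2 gave the same 3 members at an unadjusted p under 0.05 (4.87% of all genes with a p), with 0 of 38 passing its adjustment (0.26% of all genes with an adjusted p), and limma-voom gave Rere, Naa15 and Nf1 (4.31% of all tested genes), with 0 passing. The median log2 fold change of the members was 0.01 and that of all tested genes 0.02. Above 0 were 21 members and 5610 of all tested genes, and below 0 were 17 members and 5222 of all tested genes. The median deviation of the members from their own means over the 6 libraries was -0.11 to 0.20 (log2) in WT-labelled libraries and 0.06 to 0.08 in heterozygote-labelled libraries, and the genotypes overlapped.

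For 19 of the 38 members, the 95% interval of the fold change lay wholly between -1 and 1 (log2), so that larger differences lay outside it. This was so for 19.5% of all tested genes. Among these members were Adnp, Chd2, Ankrd11, Ash1l, Kdm6b, Nipbl, Ctcf, Ube3a, Hectd4 and Tnrc6b. The standard error of the fold change ran from 0.179 for Adnp to 1.37 for Tsc2, with a median of 0.329 for the members and 0.629 for all tested genes.

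**Figure D2:**
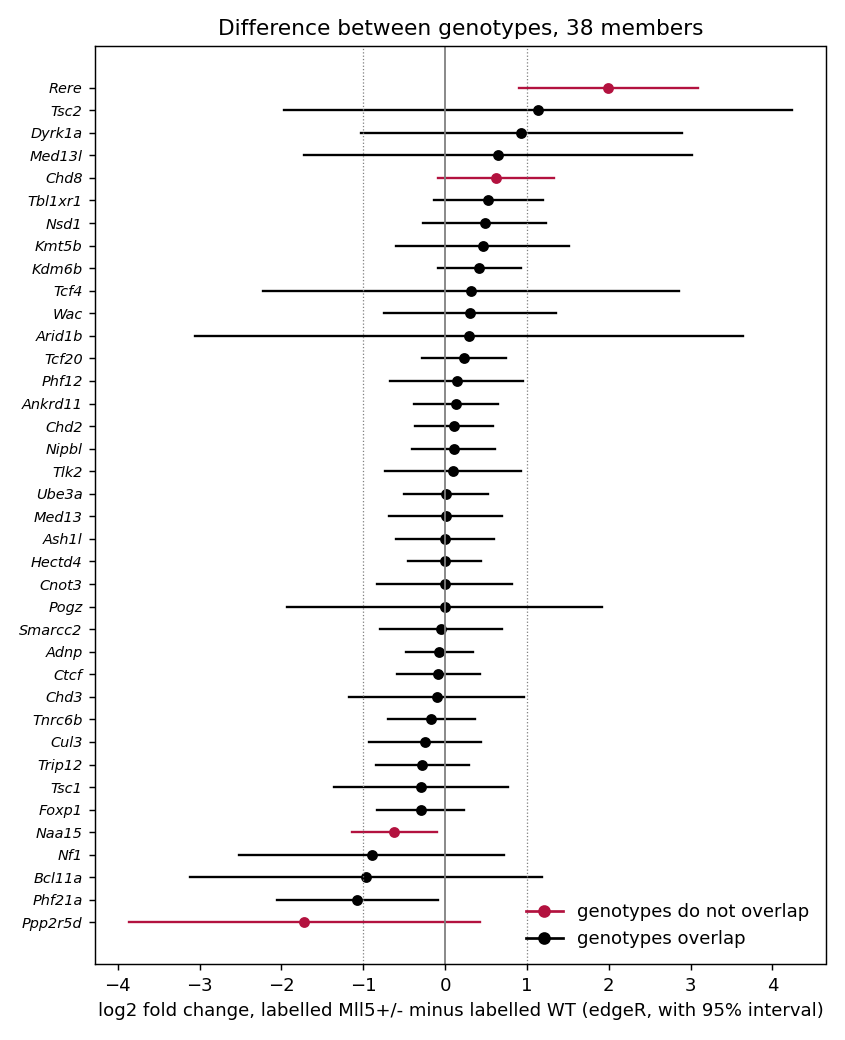
Log2 fold change of each member, labelled Mll5+/- minus labelled WT, with its 95% interval from edgeR. Red marks the 4 members without overlap between genotypes, of which Rere lies highest and Ppp2r5d at -1.72. Dotted lines stand at -1 and 1, and 19 intervals lie wholly between them.

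The corepressors and chromatin readers, 8 members, held both Rere and Phf21a. Rere encodes a corepressor of the atrophin family, which works with histone deacetylases and with nuclear receptors of retinoic acid. It lies on chromosome 4 from 150366103 to 150706423 (mm39). Its level was 8.78, 8.04 and 9.44 CPM in WT-labelled libraries and 53.7, 23.5 and 27.6 CPM in heterozygote-labelled libraries. The libraries labelled WT were close together, and the lowest library labelled Mll5+/- stood well above all of them. The mean was 3.99-fold higher (8.75 ± 0.698 against 34.9 ± 16.4 CPM, SD, n = 3 each), a log2 fold change of 2.0 (SE 0.480, unadjusted p = 0.00257 in edgeR). The adjusted p was 0.9995 in edgeR, 0.0554 in DESeq2 and 0.935 in limma-voom, and over the alternatives it ran up to 0.9999. With each library left out in turn, the unadjusted p of edgeR stayed between 0.00301 and 0.0220.

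Phf21a, on chromosome 2 from 91923462 to 92195011, encodes BHC80, which reads histone H3 without methyl marks within the CoREST and LSD1 repressor complex. It had 42.1, 92.5 and 88.5 CPM in WT-labelled libraries and 51.2, 22.2 and 32.8 CPM in heterozygote-labelled libraries. WT replicate 1 lay among the libraries labelled Mll5+/-, so the groups overlapped. The log2 fold change was -1.07 (SE 0.433, unadjusted p = 0.0358 in edgeR), and without WT replicate 2 the unadjusted p was 0.114.

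Ankrd11, an ankyrin repeat coregulator that recruits histone deacetylases, was the most abundant of this group. It had 662, 656 and 592 CPM in WT-labelled libraries and 736, 481 and 884 CPM in heterozygote-labelled libraries. Here the libraries labelled Mll5+/- spread on either side of those labelled WT (log2 fold change 0.14, 95% interval -0.38 to 0.65). The other 5 members overlapped as well. Tbl1xr1, an exchange factor of the NCoR complex, had means of 104 ± 5.70 and 149 ± 54.6 CPM (± SD, n = 3 each, libraries labelled WT first, as in all such pairs below), and Wac 304 ± 139.5 and 375 ± 169 CPM. Tcf20, a transcriptional coregulator, had 224 ± 47.6 and 263 ± 40.6 CPM, Phf12, a PHD finger protein of the SIN3 complex, 71.5 ± 14.7 and 79.0 ± 34.4 CPM, and Tlk2, a kinase of the histone chaperone ASF1, 38.9 ± 6.85 and 41.5 ± 14.3 CPM. Of the 8 members, 7 had a log2 fold change above 0 and Phf21a was the exception, while 5610 of all 10832 tested genes were above 0. Ankrd11 fell below 0 in limma-voom and in other alternatives.

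Among the 7 chromatin remodellers and their partners, Chd8 did not overlap between the genotypes. Chd8, on chromosome 14 from 52435608 to 52495237 (mm39), encodes a remodelling ATPase that also binds beta-catenin, and its promoter stretch is given above. Its level was 37.8, 61.8 and 58.7 CPM in WT-labelled libraries and 97.0, 64.8 and 82.1 CPM in heterozygote-labelled libraries. The gap between the groups was narrow, between 61.8 and 64.8 CPM. The mean was 1.54-fold higher, a log2 fold change of 0.62 (SE 0.314, unadjusted p = 0.0793 in edgeR).

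Adnp, the most abundant remodeller partner, was among the steadiest of all members. It had 378, 352 and 376 CPM in WT-labelled libraries and 348, 404 and 303 CPM in heterozygote-labelled libraries (log2 fold change -0.07, 95% interval -0.48 to 0.34). The groups overlapped, with the lowest and the highest library both labelled Mll5+/-. Chd2, another remodelling ATPase, had means of 275 ± 55.9 and 296 ± 34.2 CPM. The means of Chd3, the ATPase of a NuRD complex, were 47.4 ± 28.0 and 44.2 ± 3.26 CPM, and those of Smarcc2, a core subunit of the BAF complex, were 48.7 ± 13.6 and 47.0 ± 2.07 CPM. Arid1b, a DNA-binding subunit of the BAF complex, and Pogz, an HP1-binding zinc finger protein, spread more within each genotype than between the genotypes, as given below.

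All 4 histone methylation enzymes had log2 fold changes above 0, from 0.0011 for Ash1l to 0.48 for Nsd1, and none was without overlap. Of all 10832 tested genes, 5610 were above 0. Of 9 paralogs of histone methylation enzymes, in the partner lists taken up below, 3 were above 0 and 6 below. Nsd1, a methyltransferase for H3K36, had 678, 252 and 597 CPM in WT-labelled libraries and 632, 821 and 684 CPM in heterozygote-labelled libraries. WT replicate 2 was low, and without it the log2 fold change was 0.14, where it was 0.48 with all libraries (edgeR unadjusted p = 0.177), 0.73 without WT replicate 1 and 0.77 in limma-voom. Kdm6b, a demethylase for H3K27 that macrophages induce on stimulation, had means of 266 ± 47.6 and 357 ± 67.4 CPM (log2 fold change 0.42, edgeR unadjusted p = 0.0924). Ash1l, another H3K36 methyltransferase, had means of 572 ± 134 and 573 ± 164 CPM. Kmt5b, a methyltransferase for H4K20, had 124 ± 27.0 and 171 ± 97.9 CPM.

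The RNA and N-terminal acetylation group held Naa15, the member with the tightest libraries labelled Mll5+/-. Naa15 anchors the NatA acetyltransferase at the ribosome, where it modifies the start of new proteins. The gene lies on chromosome 3 from 51322569 to 51383928 (mm39). Its level was 141, 114 and 155 CPM in WT-labelled libraries and 86.2, 90.2 and 89.7 CPM in heterozygote-labelled libraries. All libraries labelled Mll5+/- lay below all those labelled WT, at 0.650 of their mean (log2 fold change -0.62, SE 0.230, edgeR unadjusted p = 0.0246). With each library left out in turn, the unadjusted p ran from 0.0225 to 0.0706.

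Tnrc6b, a GW182 protein of microRNA silencing, had 288, 382 and 249 CPM in WT-labelled libraries and 302, 211 and 305 CPM in heterozygote-labelled libraries. The groups overlapped (log2 fold change -0.17, 95% interval -0.70 to 0.37). Cnot3, a subunit of the CCR4-NOT deadenylase, had means of 54.6 ± 8.36 and 54.4 ± 19.8 CPM.

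In the kinase, phosphatase and growth signalling group of 5, Ppp2r5d was the member without overlap. It lies on chromosome 17 from 46993917 to 47016037 (mm39), encodes the delta B56 subunit of phosphatase PP2A, and had 8.57, 11.6 and 9.02 CPM in WT-labelled libraries and 2.49, 5.69 and 0.662 CPM in heterozygote-labelled libraries. The mean was 3.30-fold lower in heterozygote-labelled libraries, which also spread more. The log2 fold change was -1.72 (SE 0.946, unadjusted p = 0.103 in edgeR), and its interval from -3.87 to 0.43 includes 0. With each library left out in turn, the log2 fold change ran from -2.63 (without Mll5+/- replicate 2) to -1.26 (without Mll5+/- replicate 3). The unadjusted p of edgeR then ran from 0.0429 to 0.230. The deposited span of Ppp2r5d overlaps that of Mea1, which had means of 8.64 ± 1.67 and 8.39 ± 2.33 CPM. Whether reads of Mea1 were counted to Ppp2r5d is not known.

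Nf1 encodes neurofibromin, which turns off RAS, and was the most abundant of this group. It had 287, 367 and 305 CPM in WT-labelled libraries and 71.0, 72.2 and 371 CPM in heterozygote-labelled libraries. Mll5+/- replicate 3 was the highest of all 6 libraries and the other two labelled Mll5+/- were the lowest, so the groups overlapped. The log2 fold change was -0.90 (SE 0.673, unadjusted p = 0.228 in edgeR), and without Mll5+/- replicate 3 it was -2.17 (edgeR unadjusted p = 1.816e-05, adjusted p = 0.0508). Without Mll5+/- replicate 1 or 2 it was -0.54 or -0.55 (edgeR unadjusted p = 0.416 and 0.417), and in limma-voom, which weighted the libraries, it was -1.73. Over all alternatives the adjusted p ran from 0.0508 to 0.9999. The deposited span of Nf1 overlaps those of Evi2, Evi2a, Evi2b and Omg. Whether reads of these genes were counted to Nf1 is not known, and their part in the pattern was not tested. Spans of Cnot3, Tsc2 and Ash1l also overlap that of another gene in the count table (Leng1, Pkd1 and Dap3).

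The remaining growth signalling members were at low levels. Tsc1, which with Tsc2 restrains the kinase mTOR, had means of 17.3 ± 2.15 and 14.1 ± 2.95 CPM, and Tsc2 had 1.79 ± 2.03 and 3.95 ± 1.43 CPM. Dyrk1a, a dosage-sensitive kinase, had 5.80 ± 4.98 and 11.1 ± 6.14 CPM. The intervals of Tsc2 and Dyrk1a reached beyond both -1 and 1 on the log2 scale, so changes of that size in either direction lay within them.

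The 4 ubiquitin ligases overlapped between the genotypes in every case. Ube3a, the ligase lost in Angelman syndrome, had 349, 343 and 467 CPM in WT-labelled libraries and 411, 464 and 295 CPM in heterozygote-labelled libraries. These values interleave (log2 fold change 0.01, 95% interval -0.50 to 0.52). Hectd4, a HECT domain protein, had means of 196 ± 18.6 and 196 ± 18.0 CPM. Means of Trip12, a HECT ligase, were 120.1 ± 18.3 and 99.1 ± 17.1 CPM, and those of Cul3, a cullin scaffold for ligases with BTB adaptors, were 105 ± 26.7 and 88.4 ± 22.0 CPM.

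Med13l and Med13 join the kinase module to the Mediator complex, which links transcription factors to RNA polymerase. Med13l had 257, 16.4 and 275 CPM in WT-labelled libraries and 272, 251 and 336 CPM in heterozygote-labelled libraries. WT replicate 2 alone was low, and the other 5 libraries lay between 251 and 336 CPM. With it the log2 fold change was 0.65 (SE 0.941), and without it 0.09. Without WT replicate 3 it was 1.07, and in limma-voom, with weighted libraries, 1.94 (unadjusted p = 0.0530). Its paralog Med13 had 137 CPM in WT replicate 2, 131 and 136 CPM in the other WT-labelled libraries, and averaged 135 CPM in the heterozygote-labelled ones.

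Nipbl and Ctcf shape chromosome loops, Nipbl by loading cohesin and Ctcf by stopping it. Nipbl, the member of highest level, had 991, 970.3 and 666 CPM in WT-labelled libraries and 955, 721 and 1149 CPM in heterozygote-labelled libraries (log2 fold change 0.10, 95% interval -0.41 to 0.62). The groups overlapped, and so did those of Ctcf, with means of 183 ± 24.7 and 173 ± 31.2 CPM. Of the 3 DNA-binding transcription factors, Foxp1, a forkhead repressor, was the most abundant. It had 244, 311 and 211 CPM in WT-labelled libraries and 257, 189 and 178 CPM in heterozygote-labelled libraries (log2 fold change -0.30, 95% interval -0.83 to 0.23), again with overlap. The fold change was -0.15 without WT replicate 2 and -0.49 without Mll5+/- replicate 1. Tcf4, an E protein that pairs with other helix-loop-helix factors, and Bcl11a, a zinc finger repressor, varied widely within a genotype.

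Libraries of 1 genotype differed widely for several members. With 1 amplified library per mouse, differences between animals and those from sorting or amplification cannot be told apart. The highest library of a genotype was over 4-fold above the lowest (0.5 added to each CPM) for 9 of the 38 members (23.7%), and for 38.7% of all tested genes. Among genes of at least 10 CPM, it was so for 6 of 34 members (17.6%) and for 20.9% of tested genes, so the share of the members was near that of genes at such levels. The 6 were Arid1b, Med13l, Tcf4, Pogz, Nf1 and Kmt5b, and Bcl11a, Ppp2r5d and Tsc2 were the others. Without Mll5+/- replicate 3, the count of members was 5, and the matching share of all tested genes is not given here.

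No single library stood apart in all of these members, but WT replicate 1 and Mll5+/- replicate 3 did so in several. Mll5+/- replicate 3 also had the lowest total count (21075570) and the highest share of mitochondrial counts (3.55%), and the part of this was not tested. Arid1b, shown in every library after its values were seen, had 90.8, 3.73 and 12.8 CPM in WT-labelled libraries and 103, 11.2 and 16.7 CPM in heterozygote-labelled libraries. A single library of each genotype was high, replicate 1 in both, although these numbers do not pair the animals. Tcf4 was high in WT replicate 1 (383 CPM) and Mll5+/- replicate 3 (586 CPM) and lay between 77.3 and 156 CPM in the others. Pogz was highest in these same libraries, at 25.9 and 33.3 CPM, against 4.14 to 10.5 CPM in the others. Kmt5b was low in Mll5+/- replicate 2 alone (58.9 CPM, against 101 to 240.3 CPM), and Bcl11a ran from 1.46 to 22.4 CPM within WT-labelled libraries.

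**Figure D3:**
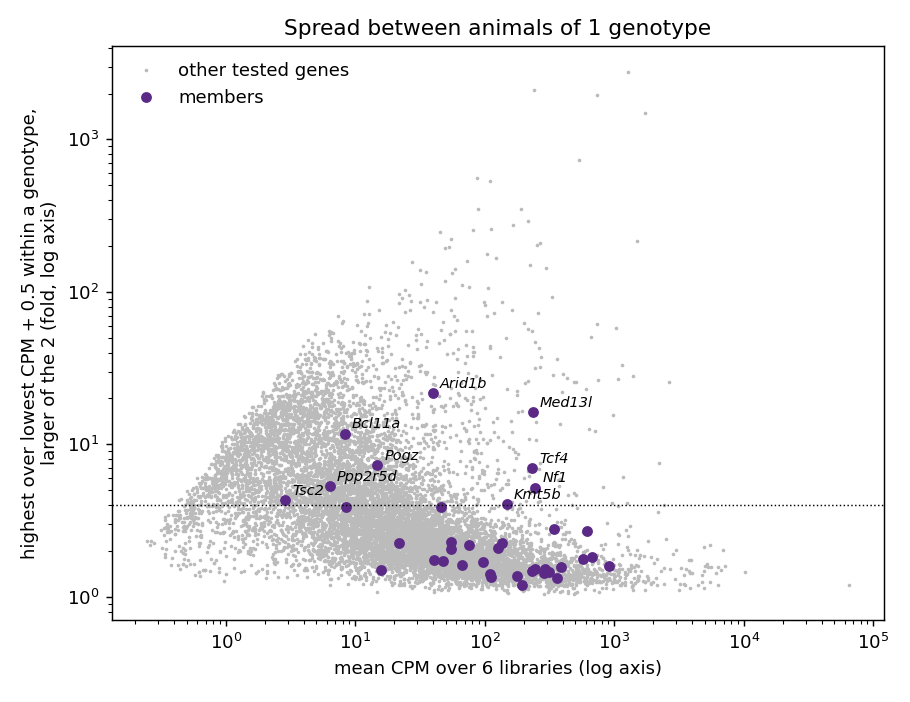
Highest over lowest CPM (0.5 added) among the 3 libraries of a genotype, taking the larger of the 2 genotypes, against mean CPM over the 6 libraries, both on log axes. Purple points are the 38 members and grey points the other tested genes. The 9 named members lie above the dotted line at 4-fold, with Arid1b at 21.6-fold and Med13l at 16.3-fold.

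Other parts of the complexes in which the members work were looked at next, as 11 lists of 115 partners and paralogs, of which 112 were tested. None passed the adjusted threshold in edgeR or in DESeq2, and 6 (5.36%, against 2.88% of all tested genes) had an unadjusted p under 0.05, 1 higher and 5 lower in heterozygote-labelled libraries. The median log2 fold change of the 112 was 0.07. Those without overlap numbered 11 (9.82%, against 9.32% of all tested genes), a share near the background. Of these, 4 were higher (3.57%, against 4.68%) and 7 lower (6.25%, against 4.64%). In the BAF complex, 0 of 14 had an unadjusted p under 0.05 and 2 did not overlap, Smarca4 and Arid2, both higher in heterozygote-labelled libraries and named after their values were seen. In the list of CHD and NuRD proteins 0 of 17 had an unadjusted p under 0.05, and the same held for 0 of 14 in the list of NCoR, SIN3 and CoREST proteins, 0 of 9 cohesin genes and 0 of 4 NatA genes. The NatA partners of Naa15 thus gave no member under that p, with a median log2 fold change of 0.21.

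The lower partners came from several complexes. Tnrc6a, the paralog of Tnrc6b in microRNA silencing, had 149.5, 135 and 178 CPM in WT-labelled libraries and 70.8, 41.6 and 101 CPM in heterozygote-labelled libraries. Every library labelled Mll5+/- lay below the others (log2 fold change -1.11, SE 0.337, edgeR unadjusted p = 0.00944). In the same list, Cnot6, a deadenylase, had means of 69.1 ± 21.9 and 43.7 ± 6.73 CPM, without overlap. Tnrc6c, the third paralog, was the 1 partner at a higher level with an unadjusted p under 0.05, at 17.4, 39.6 and 5.59 CPM in WT-labelled libraries and 56.3, 35.8 and 189 CPM in heterozygote-labelled libraries, which overlap. It is named outside the rule, after its values were seen.

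Spred1, which works with Nf1 in turning off RAS, had means of 196 ± 58.5 and 123 ± 14.1 CPM, without overlap (edgeR unadjusted p = 0.0298). Ezh2, the H3K27 methyltransferase that Kdm6b opposes, had means of 46.2 ± 9.84 and 24.8 ± 8.24 CPM, and Cul4b, a cullin scaffold, had 22.6 ± 3.81 and 10.8 ± 2.21 CPM, both without overlap (edgeR unadjusted p = 0.0464 and 0.0479). In the other direction, the cohesin subunit Stag1 had 87.3, 61.4 and 69.7 CPM in WT-labelled libraries and 100.3, 101 and 104 CPM in heterozygote-labelled libraries. The 3 values labelled Mll5+/- were almost equal and above all others, although the difference had an unadjusted p of 0.0882 (edgeR).

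Of 55 other autism-associated genes, 39 were in the table and 38 were tested. The 16 that were not in it were mostly genes of synapses and neuronal channels, such as Shank3, Shank2, Grin2b and Scn2a. Those tested had a median log2 fold change of 0.03, and 3 of them, each with a negative fold change, had an unadjusted p under 0.05 (7.89%, against 2.88% of all tested genes). Without overlap were 6 (15.8%, against 9.32%). In edgeR 0 passed the adjusted threshold, and in DESeq2 1 did. This list and the partner list share genes, among them a gene without overlap and with an unadjusted p under 0.05. Together they held 148 tested genes, of which 8 (5.41%) had an unadjusted p of edgeR under 0.05 and 16 (10.8%) did not overlap. Deaf1, a DNA-binding regulator, was at a higher level without overlap, with means of 48.8 ± 4.93 and 68.4 ± 10.9 CPM (edgeR unadjusted p = 0.122).

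**Figure D4:**
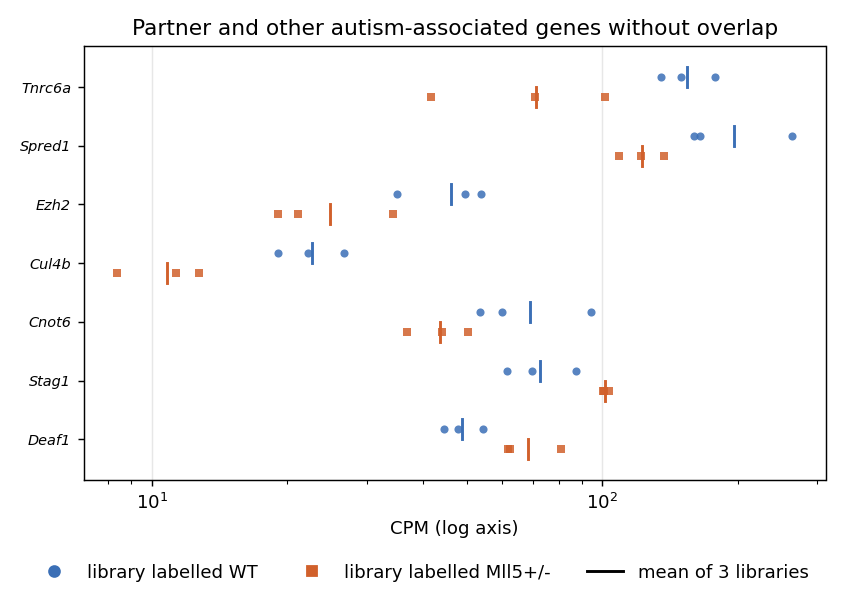
Level in each library, in CPM on a log axis, of 7 partner and other autism-associated genes without overlap between genotypes, ordered by unadjusted p. Circles are libraries labelled WT, squares are libraries labelled Mll5+/-, and bars are means of 3. Tnrc6a, Spred1, Ezh2, Cul4b and Cnot6 have all squares to the left of the circles, while Stag1 and Deaf1 have them to the right.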

How the data were processed

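Gene coordinates and raw counts, whole numbers listed by symbol, make up the file that the authors deposited. Per the submitters' processing notes, the build is mm39 and FastQC, STAR, StringTie and DESeq2 were used; versions, roles, counting and strand setting: not given in the sources used here. Per the labels' protocols, cDNA was amplified by SMART-seq, and intervals cover no more than the spread between these libraries.

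Genes were kept with filterByExpr (minimum count 10, minimum total 15), which removed 1049. Counts were scaled by TMM and tested with the quasi-likelihood F-test of edgeR 4.0.16 in R 4.3.3 (robust option, two-sided), with Benjamini-Hochberg adjustment over all 10832 genes. SEs and intervals were derived from each coefficient and its F value. The fit was run on simulated counts, where recovery of planted changes was required only at a spread far below that of these data. It therefore does not show what could be detected here. DESeq2 1.42.0, limma-voom (limma 3.58.1), 1 surrogate variable (sva 3.50.0), other scalings and filters, and leaving out each library were alternatives. Members and lists were chosen with earlier results of these data known. Values per library are given for members with an unadjusted p under 0.05, without overlap, or of highest level in their role group, and for partners without overlap and of smallest p. At most 10 of these were to be named, and 3 are not reported here.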

Additional observations from a re-analysis of the deposited data

How the results depend on the processing

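No member passed the adjusted threshold under any alternative run. Over all genes, edgeR called 0, DESeq2 29, edgeR with 1 surrogate variable 1, and edgeR with 1 library left out between 0 and 2. With a library left out, the members without overlap numbered between 5 and 10, as fewer libraries overlap less, those with an unadjusted p under 0.05 between 1 and 4, and those of over 4-fold range between 5 and 9. The matching shares of all tested genes are not given here, so these counts say nothing of the members as a set. The members' median log2 fold change then ran from -0.061 to 0.12. At a threshold of 0.01, 1 member had a smaller unadjusted p. The fold change of Kmt2e ran from -0.36 to 0.18 and turned sign without WT replicate 3 or Mll5+/- replicate 2. Signs turned for members near 0: with limma-voom Ankrd11 (-0.0035) and Nipbl (-0.046), without a filter Ube3a (-0.0023), with a surrogate variable Adnp (0.022), Ankrd11 (-0.067) and Nipbl (-0.069), and with a library left out Ube3a (-0.14 to 0.17), Tnrc6b (-0.30 to 0.0065), Nipbl (-0.074 to 0.25), Adnp (-0.19 to 0.016) and Ankrd11 (-0.077 to 0.33). The cause was not tested. Rere, Naa15, Chd8, Phf21a, Ppp2r5d, Nf1, Foxp1, Med13l and Nsd1 kept their direction in every alternative that tested them. The filter of 1 CPM in all libraries left 36 members and dropped Ppp2r5d and Tsc2. No paired analysis was possible because the labels give animal numbers that groups do not share.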
